A study of Mus musculus with 50 samples.

Results

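The genes described here are 10 that set the passage of a cell from G1 into S phase: the cyclins Ccnd1, Ccnd2, Ccnd3 and Ccne1, the kinases Cdk4 and Cdk6, the kinase inhibitors Cdkn1b, Cdkn2a and Cdkn2b, and the retinoblastoma gene Rb1. They were taken by name, each from the probe set annotated to that gene alone with the highest mean, and they are 10 of the 22180 genes so measured. Their levels came from 50 Affymetrix arrays, 1 for each of 50 mammary tumours biopsied before drug treatment. All tumours arose spontaneously in female mice, offspring of a backcross in which (C57BL/6J x FVB/NJ) hybrids were mated to FVB/NJ mice with the MMTV-Erbb2 transgene, so every animal carried the transgene and the animals differed in inherited C57BL/6J segments. In this model ErbB2 is driven by the MMTV promoter, which is active in mammary epithelium, so the levels describe tumours of that origin only. The labels name docetaxel in the treatment field and doxorubicin in the title as the drug that followed. They give 1 group, no untreated or normal tissue, no batch and no outcome, so the comparisons open to these data are relations over tumours. Nothing in the labels says whether any of the tumours came from the same mouse.

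In G1, cyclins of the D type bind CDK4 or CDK6, and cyclin E binds CDK2. These kinases phosphorylate the retinoblastoma protein, which then releases E2F transcription factors to switch on the genes of DNA replication. The INK4 proteins made by Cdkn2a and Cdkn2b block CDK4 and CDK6, and p27, the product of Cdkn1b, blocks mainly CDK2 with cyclin E. ErbB2 signalling is known to raise cyclin D1, and mice without cyclin D1 or without CDK4 are largely protected from ErbB2 mammary tumours.

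Values are log2 levels after RMA and lay between 2.53 and 13.65. They serve to compare tumours for a gene and not genes with each other, because probe sets differ in their response. The luminal epithelial markers Krt8, a keratin (9.94 ± 0.46, SD, n = 50), and Epcam, an adhesion molecule (11.42 ± 0.46), were well measured, and the lowest mean among the 14 luminal markers was 4.65 for Foxa1. Arrays correlated with each other at a median mean r of 0.978, and 3 stood apart with 0.916 for mid79, 0.931 for mid60 and 0.954 for mid100. The array mid79 had the lowest luminal score of all tumours (-4.18) and the highest adipocyte, B cell and endothelial scores (5.74, 5.55 and 4.10). The array mid60 had the highest skin and basal scores (5.98 and 2.66) and also the highest luminal score (1.57). The highest fibroblast, macrophage and muscle scores were those of mid100 (2.49, 3.19 and 4.51). A score is the mean of a marker list after each gene was standardised over tumours. The part of cell content in what these arrays show was not tested, and the relations that results rest on are given below for all 50 tumours and for the 47 without them. In biopsies of mixed tissue, fewer cells of a type and less RNA per cell cannot be told apart.

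The D cyclins varied to very different degrees between tumours. Ccnd1, the D cyclin downstream of ErbB2 in mammary epithelium, had a lowest level of 8.39, a median of 10.46 and a highest level of 11.65 (mean 10.48 ± 0.58, SD, n = 50). The lowest value was that of mid79, more than 1 log2 unit under the next, 9.58 in mid100, while mid125, mid7 (11.60) and mid105 (11.50) were highest. Ccnd2, the D cyclin known from gonads, lymphocytes and connective tissue, ran from 4.76 in mid120 through a median of 5.98 to 10.38 (mean 6.31 ± 1.03). Its 3 highest values were those of mid79 (10.38), mid60 (9.75) and mid100 (8.27), in other words the arrays that stand apart. Without them its mean was 6.11 ± 0.62 (n = 47). Ccnd3, the third D cyclin, held a narrow range with a lowest level of 6.91 in mid71, a median of 7.62 and a highest of 8.11 in mid60 (mean 7.63 ± 0.22).

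Ccne1, the cyclin that carries cells over the G1/S boundary, was as narrow, with a lowest level of 5.71 in mid117, a median of 6.22 and a highest of 6.81 in mid127 (mean 6.24 ± 0.25). Cdk4, a catalytic partner of the D cyclins, ranged from 8.67 to 10.58 around a median of 10.03 (SD 0.30). Its lowest level was again that of mid79, and the other tumours began at 9.46 in mid102. Cdk6, the other partner, had a lowest level of 6.38 in mid182, a median of 7.46 and a highest of 8.63 in mid111 (mean 7.44 ± 0.42). Here mid79 (7.45) and mid100 (7.39) lay near the median, while mid60 (7.98) was rank 4 from the top.

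Among the inhibitors, Cdkn1b had a lowest level of 7.60 in mid79, a median of 8.60 and a highest of 9.03 in mid91 (mean 8.58 ± 0.30). The arrays mid100 (8.23) and mid60 (8.19) were also among its lower values. Cdkn2a, whose locus makes both the INK4 protein p16 and the p53-pathway protein ARF, ran from 5.49 in mid47 through a median of 6.11 to 7.10 in mid54 (mean 6.17 ± 0.34). Which exons its probe set reads was not given in the sources used here, so its products cannot be told apart. Cdkn2b, which makes the INK4 protein p15, had a lowest level of 6.26 in mid26, a median of 6.59 and a highest of 7.99 in mid60 (mean 6.64 ± 0.28). The tumours mid54 and mid125 were at the top of both INK4 genes, with 7.10 and 7.03 for Cdkn2a and 7.16 and 6.99 for Cdkn2b.

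Rb1, the substrate of the G1 kinases and the brake on E2F, had a lowest level of 8.25 in mid47, a median of 9.55 and a highest of 10.96 in mid186 (mean 9.45 ± 0.55). Its lowest levels were spread over several tumours rather than 1, with mid105 at 8.37 and mid85 at 8.39 next to mid47. Between the 5th and 95th percentiles of tumours, Ccnd2 differed 7.32-fold, Ccnd1 3.35-fold, Rb1 3.31-fold, Cdkn2a 2.31-fold and Cdk6 2.26-fold. The other 5 genes differed between 1.54-fold (Cdkn2b) and 1.85-fold (Cdkn1b). A difference of at least 2-fold was thus seen in 5 of the 10 genes, beside 25.5% of the 16635 genes tested. By SD, Ccnd2 stood at percentile 98.7, Ccnd1 at 91.4 and Rb1 at 90.1 of all tested genes, while Ccnd3 stood at 44.3.

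**Figure D1:**
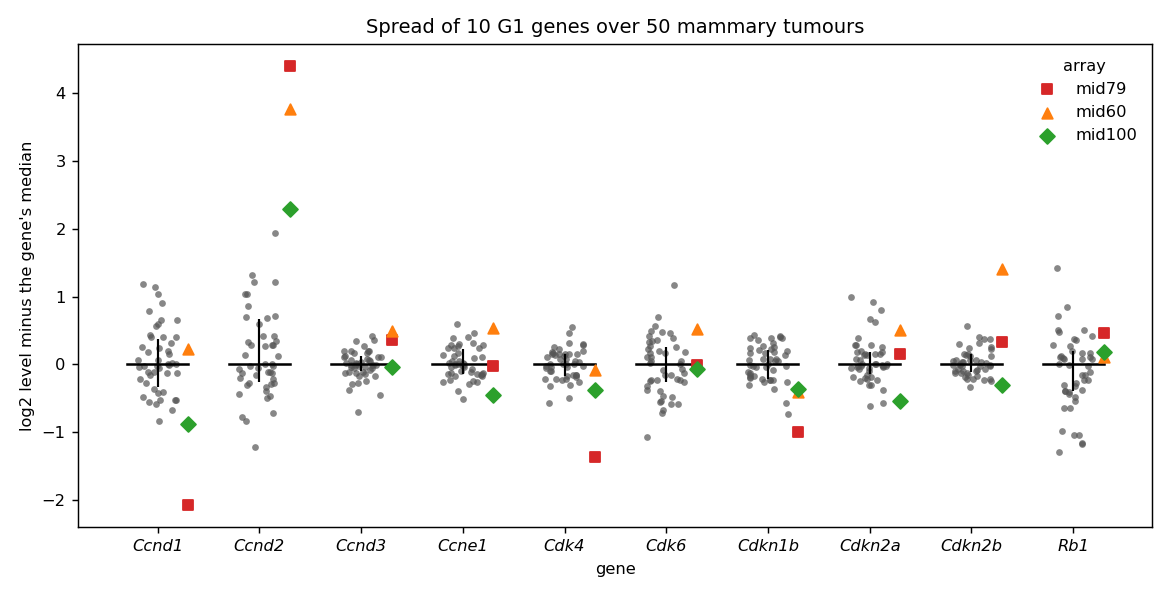
Log2 level of each gene minus its median, one point per tumour (50 tumours), with the horizontal line at the median, the vertical line over the interquartile range, and mid79, mid60 and mid100 drawn as coloured symbols at the right of each column. Ccnd1, Cdk4 and Cdkn1b were lowest in mid79, and Ccnd2 was highest in mid79, mid60 and mid100.

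Cell division in each tumour was scored from 59 genes of S phase (26) and mitosis (33), none of them among the 10 described, as the mean of their standardised levels. The S phase and mitosis parts correlated at r = 0.831. The score was lowest in mid79 at -3.21, then -1.62 in mid54, and highest in mid85 at 1.67 and mid105 at 1.66. Slopes are changes in log2 level per SD of the score, from limma over all tested genes with Benjamini-Hochberg adjusted p-values called under 0.05. Of the 16576 genes outside the score, 21.6% were called, 12.7% higher and 8.93% lower. Without mid79, mid60 and mid100, 8.04% were called, 5.53% higher and 2.52% lower. Of the 10 G1 genes, Ccnd1, Ccne1, Cdk4 and Cdkn1b were higher in tumours with a higher score, Ccnd2 and Rb1 were lower, and 4 were not called. Without the 3 arrays, Ccne1 and Cdk4 were still higher, Rb1 was still lower, Cdkn2a was now called lower, and 6 were not called.

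Rb1, Cdk4 and Ccne1 were called in both sets of tumours. Rb1 fell by 0.34 ± 0.06 log2 (SE) per SD of the score (0.792-fold, adjusted p = 5.55e-05, limma), and by 0.36 per SD without the 3 arrays (adjusted p = 4.13e-05). Pearson's r was -0.616 and Spearman's rho -0.488, with permutation p-values of 1e-05, the smallest that 100000 permutations can give, and 0.00038 (adjusted 0.000457 and 0.0108). Without mid79 and mid54, the tumours farthest from the median score, r was -0.617. The tumours with the 4 highest scores, mid85, mid105, mid7 and mid47, had Rb1 at 8.39, 8.37, 8.51 and 8.25, ranks 46 to 50 from the top. At the other end, mid186 and mid54 had the highest Rb1 levels, 10.96 and 10.39, with scores of -1.44 and -1.62. The lowest score, -3.21 in mid79, went with an Rb1 level of 10.01, rank 7 from the top. In mid2, with a score of -1.4, Rb1 was 9.63, rank 22. The relation was seen with both parts of the score, at r = -0.641 with S phase and -0.551 with mitosis, and it was called under all 13 alternative settings (adjusted p from 2.56e-06 to 0.0152).

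A second probe set annotated to Rb1 alone, with a mean of 5.10 ± 0.50, correlated with the first at r = 0.618 and fell by 0.30 per SD of the score (adjusted p = 8.43e-05, limma). Of 2 probe sets annotated to both Rb1 and Lpar6, a receptor gene that lies inside Rb1, the first correlated with the Rb1 probe set at r = 0.731 and had a slope of -0.24 (adjusted p = 0.000791). The other correlated at r = 0.147 and had a slope of -0.11 (adjusted p = 0.0127), which was -0.03 without the 3 arrays (adjusted p = 0.608). These probe sets were examined after the values of the first were seen.

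Cdk4 rose by 0.19 ± 0.03 log2 per SD of the score (1.14-fold, adjusted p = 1.43e-05, limma) and by 0.10 per SD without the 3 arrays (adjusted p = 0.027). Pearson's r was 0.653 and rho 0.525, with permutation p-values of 2e-05 and 0.00015 (adjusted 0.000762 and 0.0055), and r was 0.489 without mid79 and mid54. Its r was 0.716 with S phase and 0.558 with mitosis, values whose difference was not tested. Ccne1 rose by 0.11 ± 0.03 per SD (1.08-fold, adjusted p = 0.0066, limma), a size that did not shrink in the 47 tumours (0.13, adjusted p = 0.00271). Its r of 0.463 and rho of 0.442 had permutation p-values of 0.00065 and 0.00121 (adjusted 0.00905 and 0.0243), and r was 0.496 without the 2 farthest tumours. Like Rb1, both genes were called under all 13 alternatives, with adjusted p up to 0.027 for Cdk4 and 0.0329 for Ccne1.

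Leaving out mid79 alone ended the calls for Ccnd1, Ccnd2 and Cdkn1b. Ccnd1 rose by 0.33 ± 0.07 per SD (1.25-fold, adjusted p = 0.000378, limma), with r = 0.563 and rho = 0.389 (permutation p = 5e-05 and 0.00559, adjusted 0.00145 and 0.0639). Without mid79 alone its slope was 0.19 (adjusted p = 0.059), and without all 3 arrays 0.18 (adjusted p = 0.0854, in a range from 0.000289 to 0.0881 over its 13 alternatives, of which 10 kept the call). Without mid79 and mid54, r was 0.452 and the call for Ccnd1 on the proliferation score was kept (slope 0.23, adjusted p = 0.0229). Among the tumours with the top scores, Ccnd1 was 11.60 in mid7, 11.50 in mid105, 11.25 in mid85 and 10.34 in mid47. High levels also occurred at other scores, with 11.65 in mid125 (score 0.236) and 11.37 in mid117 (score -0.697).

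Cdkn1b, an inhibitor, rose with the score by 0.13 ± 0.04 per SD (1.10-fold, adjusted p = 0.0118, limma; r = 0.432, rho = 0.222, permutation p = 0.00217 and 0.119, adjusted 0.019 and 0.37). It was 0.07 without mid79 (adjusted p = 0.334) and 0.06 without the 3 arrays (adjusted p = 0.4, in a range from 0.00982 to 0.551), and r without mid79 and mid54 was 0.204. Ccnd2 fell by 0.44 ± 0.13 per SD (0.736-fold, adjusted p = 0.0108, limma; r = -0.43, rho = -0.212, permutation p = 0.00429 and 0.138, adjusted 0.0293 and 0.4). Without mid79 its slope was -0.15 (adjusted p = 0.522), without the 3 arrays -0.10 (adjusted p = 0.58, in a range from 0.00476 to 0.864), and r without mid79 and mid54 was -0.123.

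Cdkn2a had a slope of -0.11 ± 0.05 per SD that missed the threshold in all tumours (adjusted p = 0.0757, limma; r = -0.325, rho = -0.273, permutation p = 0.0225 and 0.0555, adjusted 0.0871 and 0.25). Without the 3 arrays it was -0.14 (adjusted p = 0.0331), the 1 setting of 13 in which it was called (adjusted p from 0.0331 to 0.295). Leaving out mid125, mid85 or mid100 alone also brought it under the threshold, and r without mid79 and mid54 was -0.266. Cdkn2b had a slope of -0.06 ± 0.04 (adjusted p = 0.318), Ccnd3 of -0.03 ± 0.03 (adjusted p = 0.599) and Cdk6 of 0.04 ± 0.06 (adjusted p = 0.677). In the 47 tumours these 3 genes had adjusted p-values of 0.3, 0.999 and 0.708. Cdk6 thus differed 2.26-fold between tumours with no relation to the score detectable in 50 arrays, and its r was 0.233 with S phase and -0.011 with mitosis.

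**Figure D2:**
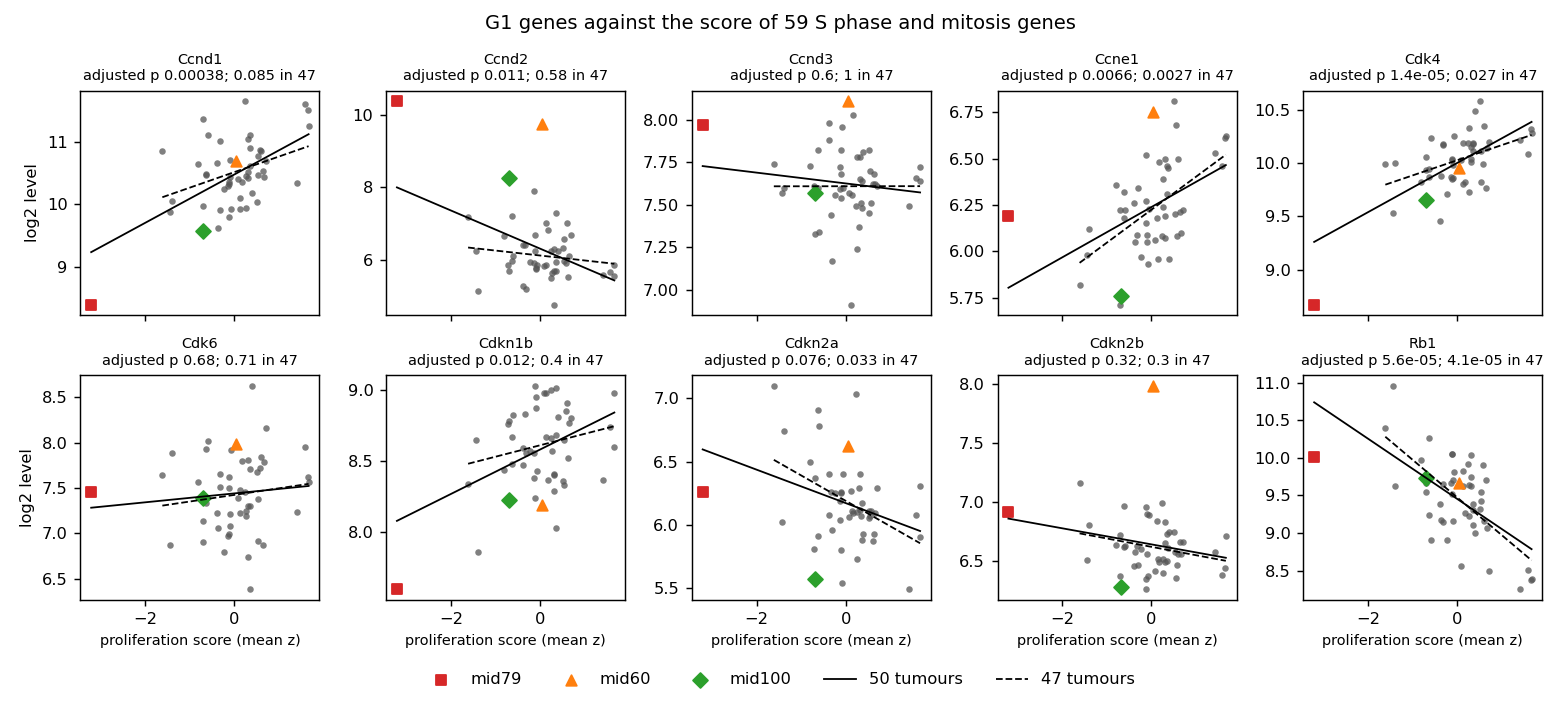
Log2 level of each of the 10 genes (vertical) against the proliferation score (horizontal, mean of 59 standardised genes), one point per tumour, with least-squares lines over 50 tumours (solid) and over 47 without mid79, mid60 and mid100 (dashed), and the limma adjusted p of each set above the panel. The lines of Rb1 and Ccne1 nearly coincide, whereas those of Ccnd2 and Cdkn1b flatten without the 3 arrays.

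Other genes of the G1/S machinery were read in the same fit from lists that hold none of the 10. Over all genes outside the score, 12.7% were higher and 8.93% lower (5.53% and 2.52% without the 3 arrays). Of 9 further cyclin, kinase and kinase-activating genes, 6 rose with the score and 0 fell (5 and 0 without the 3 arrays), with a median slope of 0.13, against 0.00867 over all tested genes. Cks2, a kinase adaptor, had a slope of 0.52 ± 0.04 (adjusted p = 4.47e-14, limma; 0.39 in 47 tumours), and Cdk2, the partner of cyclin E, had 0.20 ± 0.03 (adjusted p = 1.6e-06; 0.16 in 47 tumours). The phosphatases that activate CDKs, Cdc25a and Cdc25b, had slopes of 0.25 and 0.26 (0.16 and 0.33 in 47 tumours), and Cks1b had 0.13 in both sets. Cdk7 and Ccnh, subunits of the CDK-activating kinase, had 0.03 (adjusted p = 0.545) and 0.06 (adjusted p = 0.0587), while the third subunit, Mnat1, rose by 0.11 (adjusted p = 0.0123) and had 0.05 without the 3 arrays (adjusted p = 0.339).

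Among 16 pocket protein, E2F and partner genes, 9 rose and 0 fell (8 and 0 without the 3 arrays), with a median slope of 0.12. E2f8 and E2f7, repressive E2Fs, rose by 0.44 (adjusted p = 7.52e-13) and 0.12 (adjusted p = 1.33e-05), with 0.34 and 0.13 in 47 tumours. E2f1, an activating E2F, rose by 0.14 (adjusted p = 0.000174), and E2f2 had 0.01 (adjusted p = 0.89). Of the 2 relatives of Rb1, Rbl1, p107, rose by 0.27 ± 0.04 (adjusted p = 2.32e-07), and Rbl2, p130, had a slope of the same sign as Rb1 that was not called, -0.08 ± 0.04 (adjusted p = 0.0865, limma).

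Of 13 further inhibitors and genes of cyclin or inhibitor turnover, 2 rose and 2 fell, also without the 3 arrays, with a median slope of 0.03. The shares over all genes were 12.7% higher and 8.93% lower (5.53% and 2.52% in 47 tumours). Whether the counts of this list differ from those shares was not tested. Skp2, which targets p27 for destruction, rose by 0.36 ± 0.04 (adjusted p = 1.68e-11, limma) and Cdkn3, a phosphatase of CDKs, by 0.33 (adjusted p = 3.93e-08). Fbxo4 and Fbxo31, F-box proteins reported to act on cyclin D1, fell by 0.20 (adjusted p = 2.02e-05) and 0.11 (adjusted p = 0.0255). Their slopes in 47 tumours were -0.11 (adjusted p = 0.0251) and -0.12 (adjusted p = 0.037). Cdkn1a, the p53 target p21, had a slope of -0.03 ± 0.11 (adjusted p = 0.874) although its SD was 0.76. Of 24 regulators upstream of the G1 genes, 5 rose and 1 fell (3 and 1 without the 3 arrays), to be read beside the same shares. The Polycomb methyltransferase Ezh2 (0.25, adjusted p = 1.64e-10) and the ETS factor Etv4 (0.25, adjusted p = 3.4e-06) were on the rising side. Cbx7, a Polycomb protein known to repress Cdkn2a, fell by 0.12 (adjusted p = 0.0244), with -0.11 in 47 tumours (adjusted p = 0.106). Myc had 0.09 (adjusted p = 0.119).

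The score itself moved with the cell type markers when all tumours were used. In its fit 9 of 14 luminal markers were higher, and 12 of 12 endothelial, 7 of 8 adipocyte, 6 of 13 macrophage and 4 of 14 fibroblast markers were lower. Without the 3 arrays no luminal marker was called higher and 1 was lower, and the called counts were 0 for endothelial, adipocyte and fibroblast markers and 3 lower for macrophage markers. With fibroblast, endothelial, macrophage and T and NK scores as covariates, 3 of the 10 genes were called on the score. In that fit 1098 of the 16576 genes outside the score were called, against 3582 without covariates.

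The promoter of Cdk4 is shown because Cdk4 followed the score in every setting and because its E-boxes set it apart from most promoters. It is chr10:127063285-127063534 on the plus strand of GRCm38.p6, the 250 bases before the RefSeq start, and capitals mark the E-box CACGTG, a motif that MYC with MAX can bind and that reads the same on both strands.
Cdk4: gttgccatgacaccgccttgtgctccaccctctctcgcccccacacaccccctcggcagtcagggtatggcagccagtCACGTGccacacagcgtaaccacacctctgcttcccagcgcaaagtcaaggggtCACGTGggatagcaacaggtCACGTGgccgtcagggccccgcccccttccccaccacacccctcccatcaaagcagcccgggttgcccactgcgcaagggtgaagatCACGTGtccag
It holds 4 E-boxes, which begin 172, 118, 98 and 11 bases before the start. Of 32851 mouse promoters of this length, 6.02% held at least 1 and 7 (0.0213%) held 4 or more. Cdk6 held 1, and none was found in the windows of Ccnd3, Ccne1, Cdkn1b, Cdkn2a and Cdkn2b; promoters of 7 of the 10 genes were in the RefSeq table, and those of Ccnd1, Ccnd2 and Rb1 were not used here. A match is a description of letters and not of binding. The level of Myc correlated with Cdk4 at r = 0.289 over 50 tumours and 0.0813 over 47, given as a description.

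The 10 genes form 45 pairs, and a pair was called where the adjusted p was under 0.05 in the fits on both genes, each over all 16634 other genes. Of the 45 pairs, 9 were called, 5 positive and 4 negative, and no called pair held Ccnd3, Ccne1 or Cdk6. The background of such fits differed widely: on Ccnd2 39.1% of all genes were called, on Cdk4 24.9%, on Ccnd1 15.4%, on Cdkn1b 14.5%, on Cdkn2b 13.4%, on Rb1 13.4%, on Ccnd3 3.03%, on Ccne1 0.21%, on Cdk6 0.198% and on Cdkn2a 0.00601%. Without the 3 arrays 2 of the 45 pairs were called, beside shares of 14.1% on Rb1, 9.16% on Ccnd2, 7.23% on Cdk4, 2.66% on Ccnd3, 1.12% on Cdk6, 0.751% on Cdkn2b, 0.745% on Ccne1, 0.493% on Ccnd1, 0.0541% on Cdkn2a and 0% on Cdkn1b. With the proliferation score as a covariate 2 pairs were called, beside 32.4% on Ccnd2, 10.7% on Cdkn2b, 5.62% on Cdk4, 4.99% on Rb1, 2.88% on Ccnd3, 0.685% on Cdk6, 0.108% on Cdkn1b, 0.0842% on Ccnd1, 0.012% on Cdkn2a and 0% on Ccne1. Counts of pairs are to be read against these shares, which were high for the genes most extreme in mid79. The median absolute r of a pair was 0.236 over 50 tumours and 0.152 over 47. In all, 165 relations were computed, 120 of a gene with a score or with Erbb2 and 45 between the genes.

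The pair that held was Cdkn2a and Cdkn2b, the neighbouring INK4 genes of chromosome 4. Their r was 0.631 and rho 0.70 over 50 tumours, r was 0.70 over 47, and the larger adjusted p of the limma fits was 0.014 (0.00159 without the 3 arrays). Its permutation p of 1e-05, the smallest possible, became 0.139 when adjusted over all genes of the Cdkn2a fit, a limit set by the number of permutations. It was called under 10 of 11 alternatives, and the exception was leaving out the 2 tumours farthest from the median of each gene (adjusted p = 0.311, the highest of the range that begins at 0.00157). There r was 0.575 without mid54 and mid125 and 0.655 without mid60 and mid54. Leaving out tumours in turn kept r between 0.594 and 0.71. With the proliferation score as a covariate the adjusted p was 0.0337.

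Over all 50 tumours Cdkn2b was the 1 gene of 16634 called in the fit on Cdkn2a. In the 47 tumours 9 genes were called there, 8 higher and 1 lower, among them Zmat3 and Eda2r, known p53 target genes, with r of 0.576 and 0.569 (adjusted p = 0.0436 each, limma). The others that rose were Cdkn2b, Usp2, Mfsd2a, Wnt5b, Coro6 and Rpph1, and Gm15941 fell. These names came from the count and were chosen after their values were seen. Cdkn1a, another p53 target, was not called in the fit on Cdkn2a, at r = 0.433 over 50 tumours (adjusted p = 0.268, limma). In 47 tumours its r was 0.444 (adjusted p = 0.173).

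Promoters of both INK4 genes are shown because the pair moved together. They lie on the minus strand of chromosome 4 (GRCm38.p6): Cdkn2a at chr4:89294620-89294869 (the upstream start) and chr4:89282193-89282442 (the downstream start), and Cdkn2b at chr4:89311033-89311282. Each is printed in the direction of its gene, and capitals mark an E2F motif (TTTCCCGC, TTTCGCGC, TTTGCCGC or TTTGGCGC on either strand) or the cyclic AMP response element TGACGTCA.
Cdkn2a, upstream start: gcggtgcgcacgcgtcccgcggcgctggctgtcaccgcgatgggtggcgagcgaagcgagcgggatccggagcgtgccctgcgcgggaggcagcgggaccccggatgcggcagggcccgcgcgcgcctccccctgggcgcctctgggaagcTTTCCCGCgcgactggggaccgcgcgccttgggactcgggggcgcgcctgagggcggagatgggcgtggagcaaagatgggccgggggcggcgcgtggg
Cdkn2a, downstream start: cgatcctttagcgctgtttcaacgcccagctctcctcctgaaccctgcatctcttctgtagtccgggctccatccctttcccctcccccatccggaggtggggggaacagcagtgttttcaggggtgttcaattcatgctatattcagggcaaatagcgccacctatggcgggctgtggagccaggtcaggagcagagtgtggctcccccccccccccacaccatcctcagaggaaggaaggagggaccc
Cdkn2b: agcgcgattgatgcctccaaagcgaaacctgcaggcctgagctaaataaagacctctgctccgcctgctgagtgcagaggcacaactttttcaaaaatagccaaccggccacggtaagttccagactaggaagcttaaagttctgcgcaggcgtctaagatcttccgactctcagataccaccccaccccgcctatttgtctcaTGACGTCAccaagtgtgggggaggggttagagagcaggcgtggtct
The upstream start of Cdkn2a had 1 E2F motif, 99 bases before the start, as did 1.86% of all promoters. Its downstream start had none of the motifs. Cdkn2b had 1 cyclic AMP response element, 46 bases before the start, which 1.55% of promoters held. No motif was thus shared between the windows of the pair, which says only that these letters are not in both.

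Cdk4 and Rb1 were the other pair called in both sets of tumours, at r = -0.411 and rho = -0.41 (permutation p = 0.00352 and 0.00331, adjusted 0.0346 and 0.0345). The larger adjusted p of limma was 0.0268 over 50 tumours and 0.0454 over 47. It was 0.976 with the proliferation score as a covariate, where the partial r was -0.0145, and 0.131 with 4 cell type scores as covariates, while 8 of 11 alternatives kept the call (adjusted p from 0.0159 to 0.976). Leaving out tumours in turn gave r between -0.441 and -0.358, and leaving out mid79 and mid102 gave -0.454, or mid186 and mid47 -0.345.

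The other 7 called pairs joined Ccnd1, Ccnd2, Cdk4, Cdkn1b and Cdkn2b, and in 47 tumours their adjusted p-values were 0.309 or higher. Ccnd1 and Cdk4 correlated at 0.495 (0.194 in 47 tumours), Ccnd1 and Cdkn1b at 0.42 (0.207) and Cdk4 and Cdkn1b at 0.388 (0.0739). Ccnd2 correlated at -0.372 with Ccnd1 (-0.0572 in 47), at -0.466 with Cdk4 (-0.058) and at -0.421 with Cdkn1b (-0.0131). Ccnd2 and Cdkn2b correlated at 0.492 (0.289 in 47 tumours), and this pair was also called with the proliferation score as a covariate (adjusted p = 0.0121, limma). Pairs that were not called over 50 tumours had r between -0.35 and 0.336 there. In 47 tumours no pair of D cyclins was called: r was -0.0572 for Ccnd1 and Ccnd2, -0.0995 for Ccnd1 and Ccnd3 and 0.0232 for Ccnd2 and Ccnd3. The uncalled pair with the highest r in 47 tumours was Cdk4 and Cdk6, at 0.449 (adjusted p = 0.07, limma; 0.319 over 50).

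**Figure D3:**
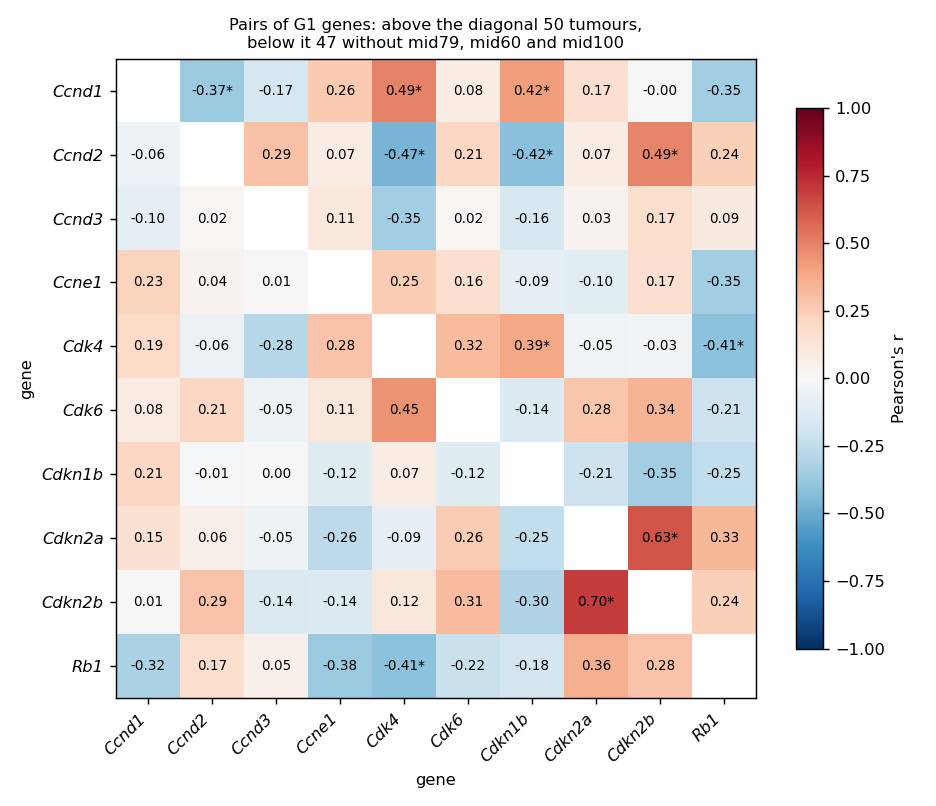
Pearson's r for each pair of the 10 genes, over 50 tumours above the diagonal and over 47 without mid79, mid60 and mid100 below it, with an asterisk where limma's adjusted p was under 0.05 in the fits on both genes. Of 9 called pairs above the diagonal, Cdkn2a with Cdkn2b and Cdk4 with Rb1 are called below it.

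Ccnd2 moved with markers of connective tissue, vessels and macrophages. Over 50 tumours it correlated with the fibroblast score at r = 0.841 and rho = 0.902 (both permutation p = 1e-05, the smallest possible, adjusted 0.000177 and 0.000251). It rose by 0.87 ± 0.08 log2 per SD of that score (adjusted p = 3.61e-13, limma). In this fit 29.7% of all genes were called (10.5% in 47 tumours), and of the 10 genes 2 were in both sets, Ccnd2 and Cdkn2b. Without the 3 arrays r was 0.899 and the slope 0.56 (adjusted p = 2.83e-16). Without the 2 tumours farthest from the median fibroblast score, r was 0.828. With the endothelial score r was 0.831 (0.784 in 47 tumours, rho 0.803), and with the macrophage score 0.742 (0.782, rho 0.787).

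Read from the other side, the fit on Ccnd2 called 14 of 14 fibroblast, 12 of 12 endothelial and 13 of 13 macrophage markers higher, with the same counts in the 47 tumours. T and NK cell markers were higher in 7 of 12 (1 in 47 tumours) and B cell markers in 5 of 5 (0 in 47). Of 14 luminal markers, 9 were lower and 2 higher, and 1 was lower in 47 tumours. With the 4 cell type scores as covariates, the slope of Ccnd2 on proliferation was -0.03 (adjusted p = 0.864).

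The other genes had weaker relations with cell type scores. Cdkn2b rose by 0.10 ± 0.04 per SD of the fibroblast score (adjusted p = 0.0349; 0.08 and 0.0418 in 47 tumours) and by 0.18 ± 0.03 per SD of the basal score (adjusted p = 2.25e-05; 0.09 and 0.0266 in 47 tumours, limma). Beside this stood its highest level, 7.99, in mid60, the array with the highest basal, skin and luminal scores. Ccnd1 and Cdk4 rose with the luminal score by 0.29 (adjusted p = 0.00204) and 0.16 (adjusted p = 0.000597), and in 47 tumours had 0.02 (adjusted p = 0.937) and -0.03 (adjusted p = 0.729). Cdk4 fell with the adipocyte score by 0.20 (adjusted p = 2.48e-06) and with the endothelial score by 0.18 (adjusted p = 3.83e-05, limma). Cdkn1b fell with the T and NK score by 0.17 (adjusted p = 0.000406), and Cdkn2b rose with the skin score by 0.18 (adjusted p = 3.96e-05, limma). In 47 tumours these 4 slopes were -0.03, -0.05, -0.09 and -0.06, with adjusted p of 0.78, 0.387, 0.233 and 0.481. Cdk6, Ccne1 and Cdkn2a were not called on any of the 10 scores. Rb1 rose with the macrophage score by 0.20 ± 0.07 (adjusted p = 0.0307), with 0.20 in 47 tumours (adjusted p = 0.0817).

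**Figure D4:**
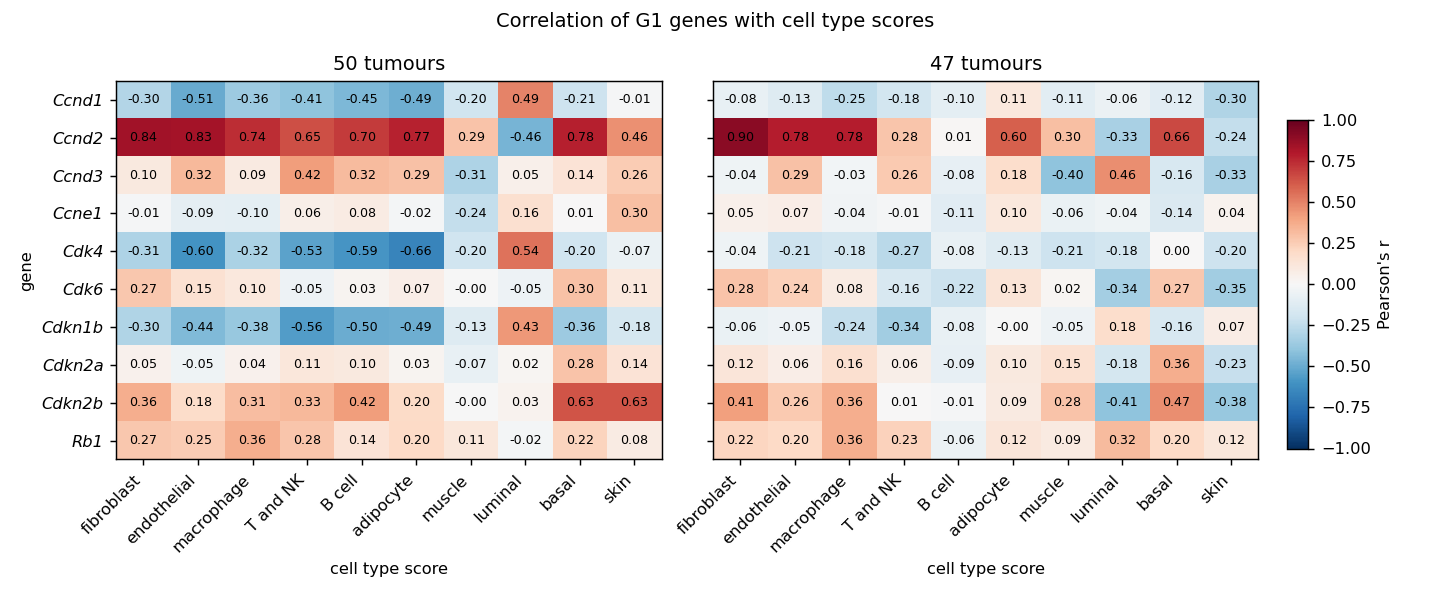
Pearson's r of each of the 10 genes (vertical) with 10 cell type scores (horizontal), over 50 tumours at the left and over 47 without mid79, mid60 and mid100 at the right. Ccnd2 correlates with the fibroblast, endothelial and macrophage scores at 0.841, 0.831 and 0.742 at the left and 0.899, 0.784 and 0.782 at the right, while the values of Ccnd1 and Cdk4 with the endothelial, adipocyte and luminal scores lie nearer 0 at the right.

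Erbb2, the driving oncogene, had a median level of 11.71 and was low in mid60 (9.02) and mid79 (9.25). In the fit on its level 33% of all genes were called over 50 tumours (18.1% higher, 14.9% lower) and 0.168% over 47 (0.0601% and 0.108%). Of the 10 genes, Ccnd1, Cdk4 and Cdkn1b were higher with Erbb2 (0.25, 0.15 and 0.13 log2 per SD, adjusted p = 0.00625, 0.00154 and 0.00614) and Ccnd2, Ccnd3 and Cdkn2b were lower (-0.78, -0.09 and -0.16, adjusted p = 7e-09, 0.0139 and 0.000199, limma). Without the 3 arrays 0 of the 10 passed, while 2 had an unadjusted p under 0.05. Ccnd1 had r = 0.433 and rho = 0.475 over 50 tumours (permutation p = 0.00691 and 0.00061, adjusted 0.0308 and 0.0406) and r = 0.434 over 47, where its slope was 0.21 (adjusted p = 0.106). That slope was 0.14 with the proliferation score as a covariate (adjusted p = 0.158) and 0.11 with 4 cell type scores (adjusted p = 0.568), in a range of adjusted p from 0.00554 to 0.568 over 11 alternatives. Rb1 had r = -0.268 over 50 tumours and -0.385 over 47, and was called in neither (adjusted p = 0.126 and 0.158). Ccnd2 had r = -0.756 over 50 tumours and -0.179 over 47. Whether this probe set reads transgene RNA, endogenous RNA or both was not tested.

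For each gene, the 4 tested genes with the highest and the 2 with the lowest r over 50 tumours were named by rule. Closest to Ccnd2 were Slit3 (0.923), Htra1 and Hspg2 (both 0.914) and Ebf1 (0.913), genes of matrix or stroma, with r of 0.886, 0.749, 0.865 and 0.922 in 47 tumours. Closest to Cdk4 were Nup43, a nuclear pore protein (0.832, 0.772 in 47 tumours), Nono, an RNA-binding protein (0.811, 0.703), Smarcc1, a chromatin remodeller (0.808, 0.666), and Dtl, a replication licensing ligase subunit (0.794, 0.669), and Snrk lay at -0.739. For Ccne1 they were Dbf4, the partner of the replication kinase CDC7 (0.596), Senp1 (0.593), Hsp90aa1 (0.585) and Ticrr, a replication initiation factor (0.577), with 0.606, 0.553, 0.497 and 0.603 in 47 tumours.

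For Ccnd1 the nearest was Ptk7, a Wnt co-receptor (0.702, 0.516 in 47 tumours), followed by Ncapg2, Slc37a1 and Tmprss2, and the farthest were Cyp4v3 (-0.698, -0.559 in 47 tumours) and Ahnak (-0.653, -0.509). Ccnd3 was nearest to Ogfod3 (0.621) and Acss2 (0.611) and stood at -0.743 with Phf14 (-0.734 in 47 tumours). Cdk6 was nearest to Sdad1 (0.635), Slc12a7 (0.618), the kinase gene Fyn (0.61) and Cux1 (0.569), values that were 0.632, 0.647, 0.63 and 0.557 in 47 tumours. Cdkn1b was nearest to Mpzl1 (0.701, 0.536 in 47 tumours), Tbc1d8b, Baiap2l1 and Cited2. Cdkn2b was nearest to Plcd3 (0.77, 0.441 in 47 tumours) and Plk3 (0.766, 0.437), and r was 0.482 and 0.398 without mid60 and mid54. For 9 of the 10 genes these named relations had adjusted permutation p-values of 0.037 or lower, and for Cdkn2a, nearest to Mfsd2a (0.561) and Zmat3 (0.558), they were 0.139 or higher.

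Relations with pathway genes were also read for each of the 10 genes. Cdk2 correlated with Cdk4 at r = 0.741 (0.687 in 47 tumours, adjusted p = 9.18e-05, limma). Ccne1 correlated with Rbl1 at 0.557, Tfdp1, an E2F partner, at 0.546 and E2f8 at 0.524 (0.607, 0.559 and 0.602 in 47 tumours). E2f8 also correlated with Ccnd1, at 0.588 over 50 tumours (adjusted p = 0.000914, limma) and 0.429 over 47 (adjusted p = 0.101). Cks2 was called over 50 tumours with Cdk4 (0.675), Ccnd1 (0.634) and Cdkn1b (0.552), and over 47 with Cdk4 (0.465, adjusted p = 0.0194) but not Ccnd1 (0.45, adjusted p = 0.0789) or Cdkn1b (0.402, adjusted p = 0.49). Rb1 correlated with Cks1b at -0.604 and Skp2, both needed for the destruction of p27, at -0.589 (-0.602 and -0.584 in 47 tumours, adjusted p = 0.000424 and 0.000506).

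Rb1 was closest of all genes to 2 of its neighbours on chromosome 14. Mir687, a microRNA gene inside the span of Rb1, correlated with it at r = 0.882 and rho = 0.901 (0.887 in 47 tumours), and Itm2b, a membrane protein gene next along the chromosome, at r = 0.855 and rho = 0.806 (0.861 in 47 tumours, adjusted p = 1.57e-10, limma). The next tested genes on either side, Rcbtb2 and Med4, had r of 0.0832 and -0.0919. Farther along, Gm10847 had r = 0.414 (adjusted p = 0.0289, limma), and 0.413 in 47 tumours (adjusted p = 0.0348). On the other side Fndc3a had r = 0.335 (adjusted p = 0.0868, limma), and 0.46 in 47 tumours (adjusted p = 0.0119). Like Rb1, Mir687 and Itm2b fell with the proliferation score, by 0.26 (adjusted p = 0.0057) and 0.12 (adjusted p = 0.000224, limma). Rcbtb2 had a slope of -0.07 (adjusted p = 0.174), and Med4 rose by 0.09 (adjusted p = 0.00755). In 47 tumours the slope of Med4 was 0.06 (adjusted p = 0.207). Whether the Mir687 probe set reads the microRNA precursor or RNA of Rb1 was not tested. Its mature product is shown because it is the one sequence in this set made from within Rb1. It lies at chr14:73206808-73206829 on the minus strand (RefSeq, GRCm38.p6), and capitals mark the seed, bases 2 to 8.
mmu-miR-687: cUAUCCUGgaaugcagcaauga
Other close relations of Rb1 were Abca1, a cholesterol transporter, at 0.757 (0.775 in 47 tumours) and Inpp5a, an inositol phosphatase, at 0.714 (0.719). Snx22 stood at -0.776 (-0.782) and M1ap at -0.732 (-0.755).

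Of the INK4 genes, Cdkn2b had called neighbours besides its partner in both sets of tumours, while Cdkn2a had none besides its partner in either. Mtap, the methylthioadenosine phosphorylase gene beside them, correlated with Cdkn2b at 0.727 (0.571 in 47 tumours, adjusted p = 0.012, limma) and with Cdkn2a at 0.477 (0.452, adjusted p = 0.166). Mir31, a microRNA gene next to Mtap in the order of tested genes, correlated with Cdkn2b at 0.687 (0.511, adjusted p = 0.033) and with Cdkn2a at 0.469 (0.436, adjusted p = 0.176). On the other side of Cdkn2b, Elavl2 had r of -0.0371 with Cdkn2b and 0.112 with Cdkn2a. Further along that side Plaa correlated with Cdkn2b at 0.397 (adjusted p = 0.0345, limma), and at 0.184 in 47 tumours (adjusted p = 0.581). Beside Cdkn1b, the noncoding gene Lockd, known as an RNA made just downstream of it, correlated at 0.455 (0.376 in 47 tumours) and rose by 0.29 ± 0.04 per SD of the proliferation score (adjusted p = 5.19e-07; 0.27 and 7.04e-06 in 47 tumours, limma). Of the 20 tested genes nearest to Ccne1, 1 had r above 0.4, and the median was -0.0532. Of the 13 near Ccnd1, Dhcr7 (0.478), Ano1 (0.423) and Shank2 (0.407) did, with 0.358, 0.153 and 0.137 in 47 tumours. Copy number was not measured on these arrays.

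**Figure D5:**
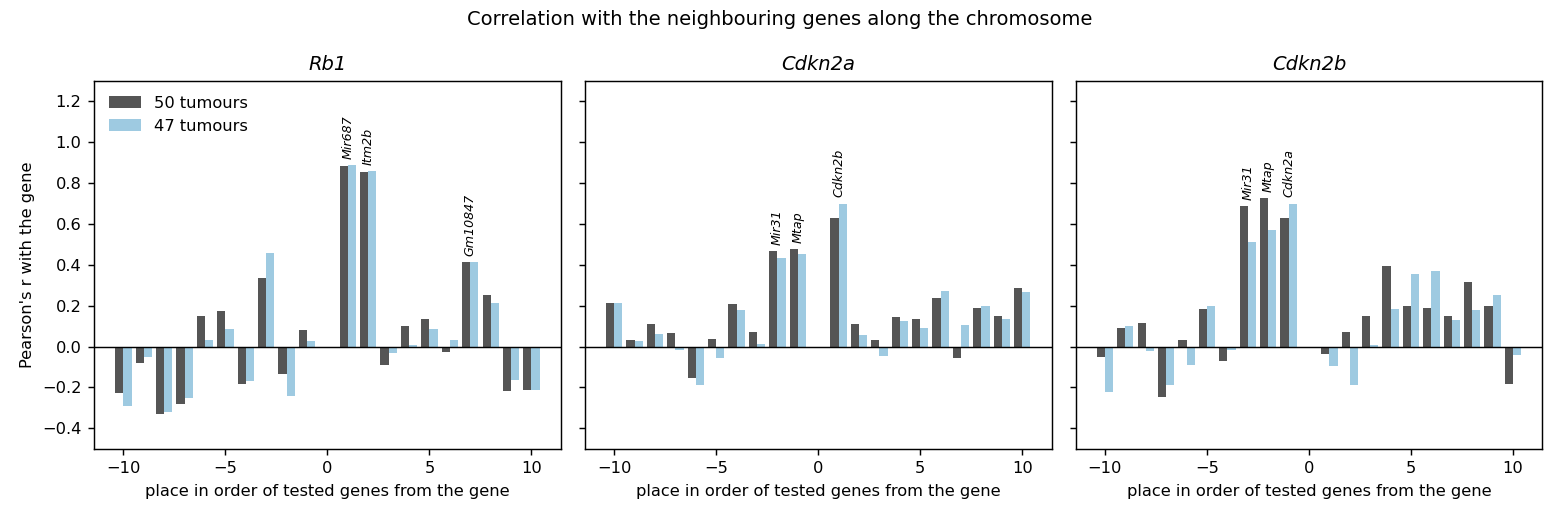
Pearson's r of Rb1, Cdkn2a and Cdkn2b with the 10 tested genes on each side, by place in the order of tested genes along the chromosome (horizontal, place 0 is the gene itself), over 50 tumours (dark bars) and 47 tumours (light bars). Names are given where r was above 0.4 over 50 tumours. Mir687 and Itm2b stand above 0.8 beside Rb1, and Gm10847 is named farther along. Beside Cdkn2a and Cdkn2b the names are Mir31, Mtap and the partner gene.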

How the data were processed

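Total RNA of 50 tumour biopsies (Trizol; biotinylated cRNA from 6 ug, per the labels) was measured on 1 array each. The deposited values are log2 levels that the authors made with RMA, per the submitters' processing notes, for 34472 probe sets; those notes also list build mm8, with no role, and which RMA version ran was not given in the sources used here. RMA sets all arrays to a common distribution, which hides shifts that nearly all genes share. The number of arrays limits the precision. The platform annotation gave 1 gene for 23521 probe sets, several for 1814 and none for 9137; 23328 matched the RefSeq table (GRCm38.p6), which gave 22180 genes. Genes with a mean under 4.387, the 25th percentile, were left out, leaving 16635, with all 10 members kept.

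The members and the gene lists were chosen with earlier results of these data known. Scores are means of standardised genes. Relations used limma 3.58.1 (lmFit, eBayes with trend; R 4.3.3) over all tested genes, with the predictor standardised over the tumours used, adjusted p-values by Benjamini-Hochberg, and two-sided permutation tests of r and rho (100000 permutations; scipy 1.17.1, numpy 2.4.6 and pandas 2.3.3 under Python 3.11.15; figures with matplotlib 3.10.9). The p-values test relations over these tumours, each taken as independent, though the labels do not say whether any shared a mouse. Besides the members, named genes were, by rule, the 4 with the highest and 2 with the lowest r for each member, members of the pathway lists, the score landmarks and the nearest genes along the chromosome. Cell type scores as predictors and the further Rb1 probe sets were chosen after seeing the data. Alternatives were other filters, probe set rules, normalization, ranks, array weights, cell type or proliferation covariates, other scores, and arrays or tumours left out. In simulated data for a fit on a score, limma recovered slopes of 0.2 in 83% and of 0.5 in 100% of 100 planted genes each. Beside these, 8 genes of 16635 were called falsely. The permutation test recovered 96 of 100 pairs planted at r = 0.6 among 400 pairs, with 4 called falsely. Both simulations drew independent normal noise, without correlated genes or an outlying array, so they do not cover calls that rest on mid79.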

Additional observations from a re-analysis of the deposited data

How the results depend on the processing

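On the proliferation score, Ccne1, Cdk4 and Rb1 kept their direction and call under all 13 alternatives, and Cdkn2b was called under none. Ccnd1 lost its call on ranks (0.39), with 4 cell type covariates (0.21) and without mid79, mid60 and mid100 (0.18). Ccnd2 lost it on ranks (-0.21), with array weights (-0.17), cell type covariates (-0.03), without the 3 arrays (-0.10) and without the 2 farthest tumours (-0.11). Cdkn1b lost it in the same 5 settings (0.22, 0.09, 0.05, 0.06 and 0.06). Cdkn2a gained a call without the 3 arrays (-0.14). Uncalled slopes changed sign for Ccnd3 (array weights 0.0021, cell type covariates 0.03, without the 2 farthest 0.01) and Cdk6 (mitosis genes only, -0.0047). Leaving out each tumour in turn gave slopes of 0.19 to 0.36 for Ccnd1, -0.50 to -0.15 for Ccnd2, -0.03 to 0.00032 for Ccnd3, 0.07 to 0.14 for Cdkn1b and -0.13 to -0.08 for Cdkn2a, and 3 to 7 called members, the ends for Ccnd1, Ccnd2, Ccnd3 and Cdkn1b nearest 0 being without mid79. Called members numbered 3 on ranks and 3 with cell type covariates, against 6. All genes called fell from 3582 to 1127 (ranks), 1596 (weights), 1098 (cell types), 1333 (3 arrays), 970 (2 farthest) and 1222 (mid79). On Erbb2, 6 members became 0 on ranks, 1 with weights, 2 with cell types, 0 without the 3 arrays and 0 without the 2 farthest (2 at an unadjusted p under 0.05 in each of the settings with 0), and all genes went from 5492 to 153, 754, 1556, 28 and 104. Uncalled or lost slopes on Erbb2 changed sign for Ccne1 (0.08, 0.01, 0.02, 0.03), Cdk6 (0.02, 0.01, 0.03, 0.03) and Cdkn2a (0.01, 0.0014, 0.03, 0.05). The values are on ranks, weights, without the 3 arrays and without the 2 farthest. Sign also changed for Cdkn2a with proliferation as covariate (0.01), and for Cdkn2b without the 3 arrays (0.0017) and without the 2 farthest (0.01). With proliferation as covariate, Ccne1 gained a call on Erbb2 (-0.10, adjusted p = 0.0166, limma). Called pairs went from 9 to 2 on ranks, 3 with weights, 2 with cell types, 2 without the 3 arrays, 0 without the 2 farthest (8 at an unadjusted p under 0.05) and 2 with proliferation as covariate; with cell types the slopes of Ccnd2 on Ccnd1 (0.03) and Cdkn1b on Ccnd2 (0.01) changed sign. Over all 10 members on the proliferation score, 112 alternatives kept direction and side of the threshold, 13 lost a call, 1 gained one and 4 changed sign; the cause was not tested. No paired analysis was possible because the labels put all tumours in 1 group.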
